A study of Mus musculus with 6 samples.

Results

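The 10 genes described here encode SLP-76 (Lcp2) and the adaptors, kinases and phospholipases that act with it below antigen receptors, in MIN6, a mouse insulinoma line that makes insulin and often stands in for beta cells. They were taken as every probe set whose platform annotation gives 1 of the 10 symbols alone, which gave 21 probe sets for all 10 genes, of 18193 genes with such a probe set. Lcp2 had been picked with its values in this same comparison known, so the set was chosen on a measured value, and the values of Lcp2 are given as a description with no test. The other 9 genes are partners of SLP-76 or of its relative BLNK. Cells received either scrambled siRNA as the negative control or siRNA to Hlxb9, a homeodomain transcription factor now named Mnx1, both by nucleofection and a lipid reagent, and RNA was taken 72 hours later. Each group has 3 arrays, numbered 1 to 3. All arrays come from this 1 cell line, and the arrayed RNA was limited to samples in which western blotting showed a loss of Hlxb9 protein above 75%. The labels call the samples sorted and name no gate. The study's design mentions several independent transfections without tying each array to 1 of them, so the errors measure the spread between arrays, which may in part be technical.

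When an antigen receptor of a T cell or B cell is engaged, Src family kinases phosphorylate its signalling chains, and Syk or ZAP-70 docks there. In T cells ZAP-70 phosphorylates the membrane adaptor LAT and the cytosolic adaptor SLP-76, which the small adaptor GADS (Grap2) ties to LAT. In B cells Syk phosphorylates BLNK, and Lat2 is the LAT relative of B cells, mast cells and myeloid cells. These scaffolds bring a Tec kinase such as Btk to phospholipase C gamma, which makes the messengers that release calcium and switch on protein kinase C and Ras. Most of the pathway is a property of blood cells, whereas Plcg1 is used by many cell types below growth factor receptors.

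Signals are log2 values, so a difference of 1 is a doubling. Each difference carries its moderated SE from limma, and group values are mean ± SD over 3 arrays. Control replicate 3 stood apart from the other arrays. It correlated with them at 0.988 to 0.991, while every other array had a best correlation of 0.997, and its Gapdh signal was 2.13 log2 stronger toward the 3′ end than toward the 5′ end, a gap of 0.65 to 0.78 elsewhere. Mnx1, the targeted transcript, read 7.70 ± 0.17 in controls and 7.41 ± 0.13 after Hlxb9 siRNA, and the groups overlapped, although each Hlxb9 siRNA array was below the control of equal number, with differences of -0.28, -0.09 and -0.49 log2. The 8 beta cell markers measured, of 10 listed, averaged 11.86 to 12.03 log2 in controls and 11.84 to 11.98 after Hlxb9 siRNA. Of these, 6 had a lower mean after Hlxb9 siRNA and 2 a higher one, with differences from -0.23 to 0.16 log2. All 8 T cell markers and all 6 B cell markers measured lay below the median of all values, 5.16.

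Lcp2 stood higher on all 3 Hlxb9 siRNA arrays than on any control, on both of its probe sets. On probe set 1418641_at the controls read 6.75, 6.74 and 6.96, and the Hlxb9 siRNA arrays 7.75, 7.75 and 7.75. The difference was 0.93 ± 0.10 log2 (SE, n = 3 each), a signal 1.91-fold higher. The treated arrays lay almost on one value, 7.75 ± 0.0033 (SD), against 6.82 ± 0.12 in controls. On probe set 1418642_at the controls read 4.91, 5.01 and 4.50, and the Hlxb9 siRNA arrays 5.95, 5.78 and 5.84. Here the difference was 1.05 ± 0.15 log2, or 2.07-fold, and this dimmer probe set passed from below the median of all values to above it. SLP-76 itself is known from T cells, mast cells, platelets and myeloid cells, where its loss breaks receptor signalling.

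Between arrays of the same number, Lcp2 differed by 1.002, 1.01 and 0.79 log2 on 1418641_at and by 1.03, 0.77 and 1.34 on 1418642_at. The probe sets parted on control replicate 3, which was the highest control on the first and the lowest on the second. Without that array the differences were 1.01 and 0.90 log2, so both stayed close to a doubling. An offset of 32 on the linear scale, which shrinks differences of dim probe sets, gave 0.77 and 0.58, the second smaller by more than 1.5 times. Over the whole array, 15 probe sets had a larger upward difference than 1418641_at, the second Lcp2 probe set among them.

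**Figure D1:**
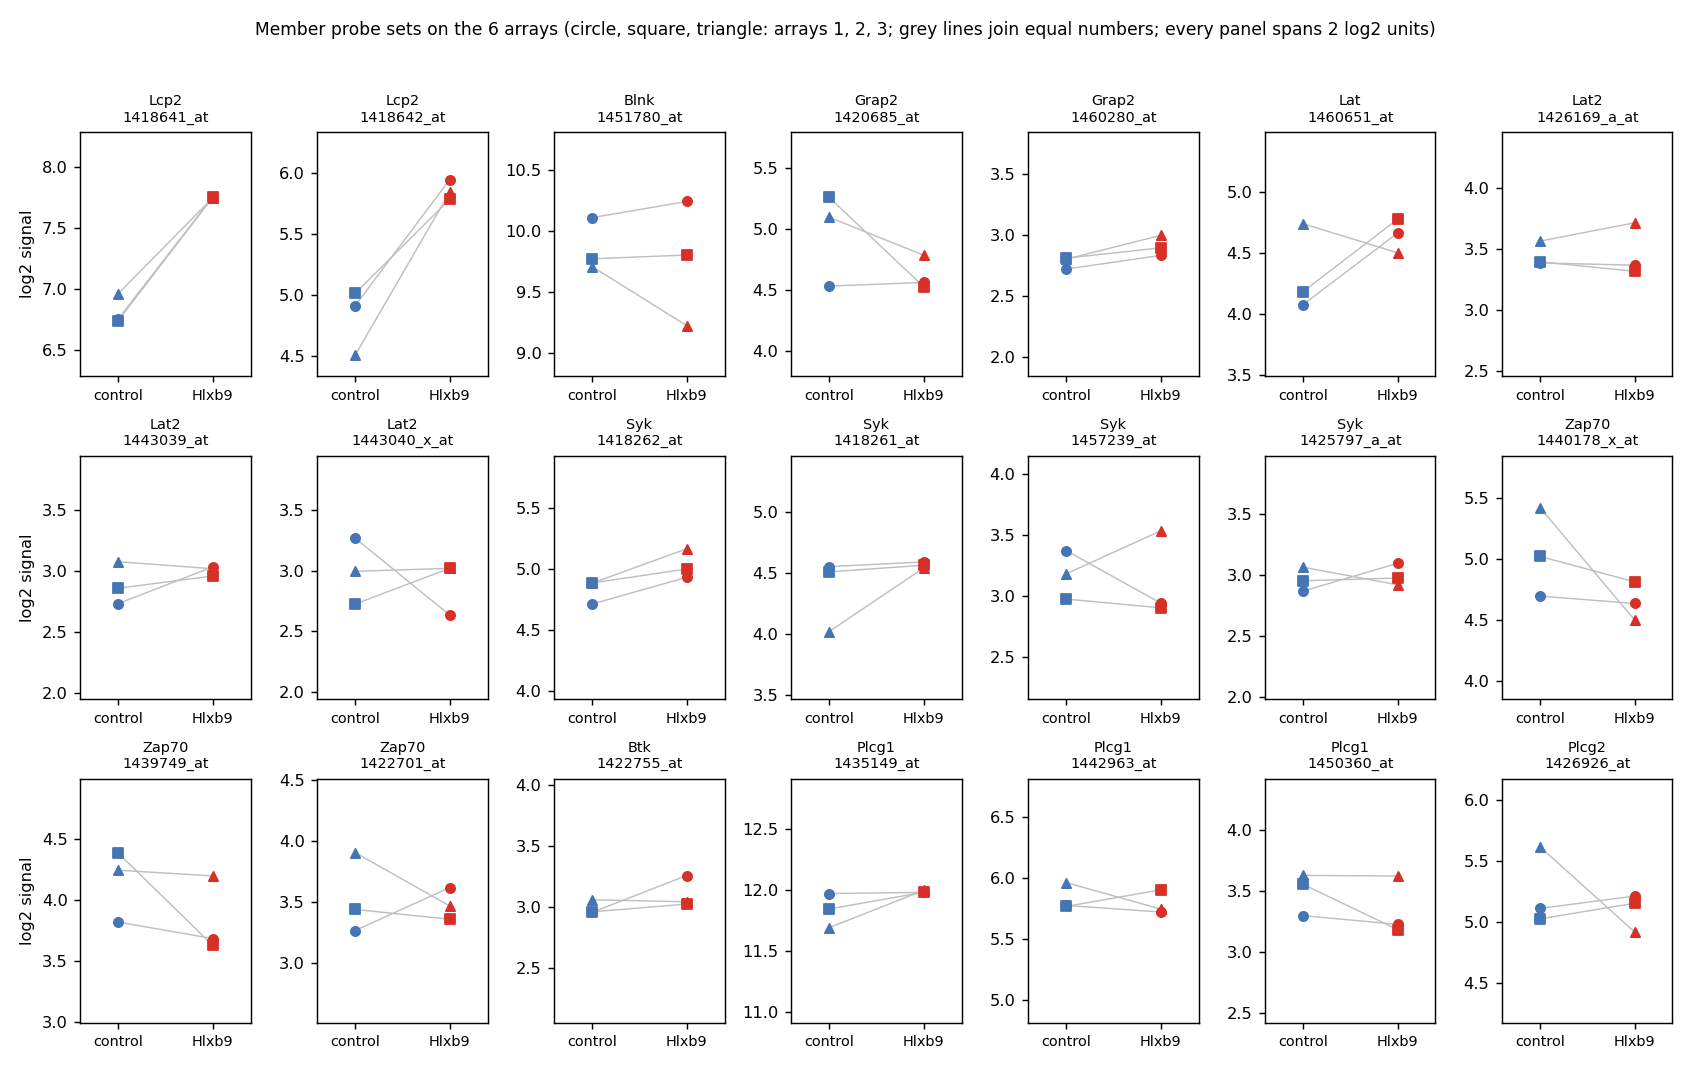
Log2 signal (vertical axes, each spanning 2 log2 units) of the 21 member probe sets in control siRNA (blue) and Hlxb9 siRNA (red) arrays; circles, squares and triangles are arrays 1, 2 and 3, and grey lines join arrays of equal number. Both Lcp2 panels show all 3 red points above all blue ones, with differences of 0.93 and 1.05 log2, while most other panels overlap.

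Blood cells are where Lcp2 is usually found, so markers of those cells were read beside it. The T cell list summed, on the linear scale, to 89.1 to 107.5 in controls and 87.9 to 95.1 after Hlxb9 siRNA, and the B cell list to 86.5 to 109.9 and 87.9 to 104.3. In the list for mast cells and platelets the sums were 146 to 168 and 127 to 143, lower after Hlxb9 siRNA with no overlap. Of its 8 markers 6 lay below the median of all values. The sums lean on the brighter Gp9 and Itga2b, which differed by -0.32 and -0.17 log2. The 10 macrophage and general blood cell markers summed to 220 to 246 in controls and 268 to 276 after Hlxb9 siRNA, again with no overlap but in the direction of Lcp2. Cd68, a lysosomal protein abundant in macrophages, carried that shift, with 6.77, 7.06 and 6.66 in controls and 7.41, 7.40 and 7.28 after Hlxb9 siRNA. In this list 3 markers had a higher mean and 7 a lower one. Csf1r, a dim marker of the list, went the other way with no overlap. It read 3.80, 3.98 and 3.93 in controls and 3.60, 3.52 and 3.51 after Hlxb9 siRNA. Without Cd68 the other 9 summed to 110.6 to 127.2 and 100.1 to 112.3 and averaged 4.55 log2 or less each. Ptprc, the CD45 phosphatase that marks nearly all white blood cells, read between 2.79 and 3.33 on the 6 arrays, near the bottom of the array's range. The part of these markers' cells in the Lcp2 difference was not tested, and in bulk RNA fewer cells of a type and less RNA per cell cannot be told apart.

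The sequence before the annotated start of Lcp2 is shown because Mnx1 is a homeodomain factor and such factors bind sites with a TAAT core. Blnk and Plcg1 are shown with it since they were the other members with a probe set above the median in both groups. Each line gives the 250 bases before the start in the direction of transcription, from RefSeq (GRCm38.p6), with TAAT or its reverse complement in capitals.
Lcp2, chr11:34046678-34046927, plus strand: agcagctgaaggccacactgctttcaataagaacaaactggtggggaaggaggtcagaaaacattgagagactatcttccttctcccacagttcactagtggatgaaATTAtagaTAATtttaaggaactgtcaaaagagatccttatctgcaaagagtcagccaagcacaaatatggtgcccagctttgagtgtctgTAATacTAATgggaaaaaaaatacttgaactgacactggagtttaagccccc
Blnk, chr19:40994222-40994471, minus strand: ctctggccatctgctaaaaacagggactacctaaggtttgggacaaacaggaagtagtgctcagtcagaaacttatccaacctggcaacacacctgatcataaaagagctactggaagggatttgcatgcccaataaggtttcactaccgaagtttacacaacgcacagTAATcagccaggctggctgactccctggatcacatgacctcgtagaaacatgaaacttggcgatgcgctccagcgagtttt
Plcg1, chr2:160731060-160731309, plus strand: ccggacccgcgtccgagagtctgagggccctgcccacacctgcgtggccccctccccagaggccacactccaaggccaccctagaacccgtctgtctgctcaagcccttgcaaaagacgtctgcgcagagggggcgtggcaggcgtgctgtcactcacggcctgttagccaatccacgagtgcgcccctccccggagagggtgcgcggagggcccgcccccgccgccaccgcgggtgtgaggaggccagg

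The Lcp2 stretch holds 4 TAAT cores on either strand, which begin at -143, -135, -52 and -46 from the start. Blnk holds 1 and Plcg1 holds 0. Of 32851 starts in the RefSeq table, 54.9% have at least 1 such core in the same window, and 9.6% have at least as many as Lcp2. Base composition differs between these windows, with 41.2% G and C in Lcp2, 47.6% in Blnk and 71.2% in Plcg1, against a median of 52.4%. The longer palindrome TAATTA, which contains TAAT, was in 4.8% of windows, not in that of Lcp2 and once in that of Grap2. GATAA, a core read by GATA factors of blood cells, occurred 2 times before Lcp2; 22.6% of all windows hold it and 4.3% as often as Lcp2 or more. GGAA, the core of Ets factor sites, occurred 4 times before Lcp2; 93.4% of windows hold it and 33.4% at least as often. These matches describe letters in a window and say nothing of binding. The table gave 12 starts for 9 of the members and none for Lat2.

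Among the adaptors other than Lcp2, the closest relative of SLP-76 was bright and did not separate the groups. Blnk, the B cell counterpart, read 10.11, 9.77 and 9.71 in controls and 10.24, 9.80 and 9.22 after Hlxb9 siRNA. Its difference was -0.11 ± 0.25 log2 (SE), and its level followed the array number more than the group, with both arrays numbered 1 highest and Hlxb9 siRNA replicate 3 lowest. Within the numbers Blnk differed by 0.13, 0.03 and -0.48 log2. Its sign turned when Hlxb9 siRNA replicate 3 was left out (0.16) or control replicate 1 (0.02), and it stood at -0.35 without Hlxb9 siRNA replicate 1, -0.18 without control replicate 3. The probe set was brighter than 87.0% of all probe sets, although the labelled cell is not of the B lineage and the B cell markers were dim, with Cd22 the brightest at 4.88.

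Lat, the membrane scaffold of T cells, was dim, at 4.07, 4.18 and 4.74 in controls and 4.66, 4.77 and 4.50 after Hlxb9 siRNA. Control replicate 3 lay inside the treated range, and the difference was 0.31 ± 0.18 log2. It was 0.52 without control replicate 3 and 0.19 without control replicate 1. With array weights, which lean on the arrays numbered 2, it was also 0.52, and Lat passed limma's adjusted threshold of 0.05 under that alternative and no other. Those weights were estimated from the same arrays, and the weighted fit rests mostly on replicate 2 of each group.

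Grap2, which links SLP-76 to LAT, gave no single direction. Probe set 1420685_at read 4.53, 5.26 and 5.10 in controls and 4.56, 4.53 and 4.79 after Hlxb9 siRNA, a difference of -0.34 ± 0.19 log2. Control replicate 1 lay as low as the treated arrays, and the value was -0.55 without it, -0.19 without control replicate 2 and -0.59 with array weights. Probe set 1460280_at read 2.72, 2.81 and 2.80 in controls and 2.83, 2.89 and 2.996 after Hlxb9 siRNA, at the floor of the array's range. It differed by 0.13 ± 0.10 log2 in the opposite direction. Lat2 had 3 probe sets, all between 2.63 and 3.72 on every array, with differences of 0.02, 0.11 and -0.10 log2, the first and last of which changed sign with the array left out.

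The kinases were dim on every probe set and split in direction. Syk, the kinase that docks on the receptor chains in B cells and mast cells, read 4.71, 4.89 and 4.89 in controls and 4.93, 5.00 and 5.17 after Hlxb9 siRNA on 1418262_at. All 3 treated arrays were above all controls there, by 0.21 ± 0.11 log2. Its probe set 1418261_at differed by the same 0.21, but that rested on control replicate 3, at 4.02 against 4.51 to 4.59 on the other arrays, and the value was 0.03 without it. The other Syk probe sets differed by -0.05 and 0.04, and both changed sign without control replicate 1 (0.05 and -0.01).

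Zap70, the T cell kinase of the same family, was lower in mean on all 3 probe sets. Probe set 1440178_x_at read 4.70, 5.02 and 5.42 in controls and 4.64, 4.81 and 4.50 after Hlxb9 siRNA, a difference of -0.40 ± 0.19 log2, and its x suffix means that some probes may cross-hybridize. The groups overlapped, since Hlxb9 siRNA replicate 2 exceeded control replicate 1, and the difference was -0.21 without control replicate 3. Probe set 1439749_at read 3.82, 4.39 and 4.25 in controls and 3.69, 3.63 and 4.20 after Hlxb9 siRNA, and the groups overlapped again with a difference of -0.31 ± 0.20. It was -0.20 without control replicate 2, and -0.57 with array weights. The third probe set, 1422701_at, differed by -0.06 and turned to 0.13 without control replicate 3. Btk, the Tec kinase of B cells, lay between 2.96 and 3.26 on the 6 arrays and differed by 0.12 ± 0.11, or by 0.04 without Hlxb9 siRNA replicate 1.

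Of the phospholipases, Plcg1 was the brightest probe set of the whole group and Plcg2 was dim. Plcg1 on 1435149_at read 11.97, 11.85 and 11.69 in controls and 11.98, 11.98 and 12.00 after Hlxb9 siRNA, above 97.3% of probe sets. The treated arrays all lay above the controls, but control replicate 1 came within 0.0096 log2 of its partner, and the difference was 0.15 ± 0.11 log2. It was 0.08 without control replicate 3 and 0.22 without control replicate 1. The other Plcg1 probe sets differed by -0.04 and -0.15, or 0.02 and -0.08 without control replicate 3. Plcg2, the isoform of B cells, mast cells and platelets, read 5.11, 5.03 and 5.62 in controls and 5.21, 5.16 and 4.92 after Hlxb9 siRNA, with a difference of -0.16 ± 0.17. Control replicate 3 set that sign, which turned to 0.03 without it. With array weights it was 0.06.

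**Figure D2:**
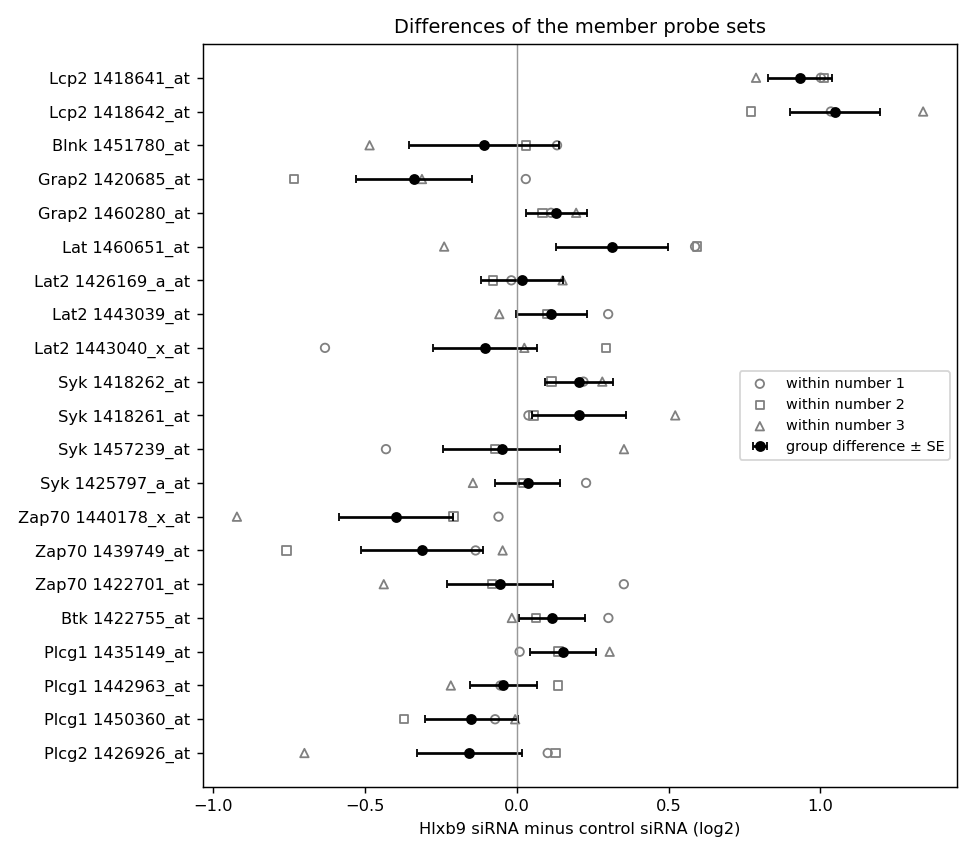
Difference between Hlxb9 siRNA and control siRNA (horizontal axis, log2) for the 21 member probe sets; black points with bars are group differences ± limma's SE (3 arrays each), open symbols the differences within array numbers 1, 2 and 3. The Lcp2 probe sets stand near 1, and the other 19 lie between -0.40 and 0.31.

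Lcp2 was left out of the count over the members because it was picked on this comparison. Of the other 19 probe sets limma called 0 at an adjusted p of 0.05 (smallest adjusted p = 0.666). Over the 45037 probe sets on the array limma called 0% (smallest adjusted p = 0.623). At an unadjusted p of 0.05 there were 0 of the 19, where 7.62% of all probe sets fell under it. Of the 19, 9 were higher and 10 lower, and their median difference was -0.04 log2, against 0.0041 for all probe sets. All treated arrays lay above all controls on 3 of the 19 (Syk, Plcg1 and the dim Grap2 probe set), against 8.27% of all probe sets, and below them on 0, against 7.29%. In both groups 15 of the 21 probe sets, and every probe set of 6 of the 10 genes, lay below the median of all values. Those 6 genes were Grap2, Lat, Lat2, Syk, Zap70 and Btk, on whose probe sets the SE ran from 0.10 to 0.20 log2.

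The wider pathway was read through 5 lists with 118 of 128 genes measured, members left out, each gene by its brightest probe set. Limma called 0 of the 118, and 0% of all 18193 genes. At an unadjusted p of 0.05 there were 6 higher and 5 lower, beside 7.95% of all genes in either direction. In all, 55 were higher and 63 lower, with a median difference of -0.01 log2, against 0.0023 for all genes. Without control replicate 3 these medians were 0.0021 and 0.03, so that of the lists turned sign.

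Antigen receptor chains and coreceptors had 16 of 22 members lower and 6 higher, with a median of -0.13 log2 and none called (smallest limma adjusted p = 0.645). Of the 22, 21 lay below the median signal in both groups, and the list's median was -0.04 without control replicate 3. Cd247, the zeta chain of the T cell receptor, read 4.04, 4.35 and 4.32 in controls and 3.82, 3.87 and 3.94 after Hlxb9 siRNA, a difference of -0.36 ± 0.12. Its other probe sets differed by -0.26, 0.16 and 0.09, so the direction depended on the probe set. The coreceptor genes Cd8a and Cd8b1 differed by -0.21 and -0.20. Cd8a differed by -0.12, -0.07, -0.51 and -0.09 on its other, dimmer probe sets, and the groups overlapped on all of these but the one at -0.51.

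Src family kinases and their regulators had 7 of 16 higher and 9 lower, with a median of -0.05 log2 (0.0099 without control replicate 3). Cbl, a ubiquitin ligase that turns off receptor and Syk family kinases, read 8.81, 8.67 and 8.23 in controls and 9.19, 9.06 and 9.05 after Hlxb9 siRNA. It differed by 0.53 ± 0.16, with 0.36 without control replicate 3, but the remaining Cbl probe sets pointed the other way, at -0.25 and -0.19. On the one at -0.25, also above the median signal, all treated arrays lay below all controls. It read 7.25, 7.20 and 7.23 in controls and 6.96, 6.94 and 7.01 after Hlxb9 siRNA. Yes1, a Src family kinase, differed by -0.37 on its brightest probe set, by -0.24 there without Hlxb9 siRNA replicate 1, and by -0.07, 0.03 and -0.02 on its others. Src differed by -0.32, and by -0.15 on its other probe set.

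Of 29 other adaptors, 15 had a higher mean and 14 a lower one, around a median difference of 0.0017 log2 (0.04 without control replicate 3). Gab3, a docking protein of the Gab family, differed by 0.43 ± 0.15, at 4.99, 4.66 and 4.55 in controls and 5.36, 5.05 and 5.07 after Hlxb9 siRNA. Skap2, an adaptor that partners with ADAP, differed by 0.27 ± 0.10 on a bright probe set, from 9.05, 9.13 and 9.17 to 9.43, 9.40 and 9.32. Its other probe sets differed by 0.05 and 0.10. Dok3, an inhibitory adaptor of B cells and macrophages, differed by -0.34 ± 0.13.

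In the list of SLP-76 and BLNK effectors, Tec kinases and lipid enzymes, the median difference was -0.10 log2 (-0.03 without control replicate 3), with 10 of 22 higher and 12 lower. Plcb4, a phospholipase C of the beta family, differed by 0.26 ± 0.10. Wasl, the N-WASP actin regulator, differed by -0.22 on its brightest probe set (-0.11 with array weights) and by -0.05, -0.49 and -0.21 on its others. Vav1, the exchange factor that binds SLP-76, differed by -0.30 on a dim probe set, with -0.15 without control replicate 3 and -0.14 with array weights. Its other probe set, dimmer still, differed by -0.28, with all treated arrays below all controls. The calcium, NFAT, Ras and NF-kappaB arms had 17 of 29 higher and 12 lower, with a median of 0.03 (0.0040 without control replicate 3). Dgka, a kinase that removes the diacylglycerol made by phospholipase C, differed by 0.43 ± 0.16, with 0.72, 0.46 and 0.12 within the array numbers and 0.27 without Hlxb9 siRNA replicate 1. Nfatc2, a calcium-regulated transcription factor, differed by 0.33 ± 0.11 on its brightest probe set and by -0.27 to 0.17 on the others. Sos2, a Ras exchange factor, differed by -0.22.

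**Figure D3:**
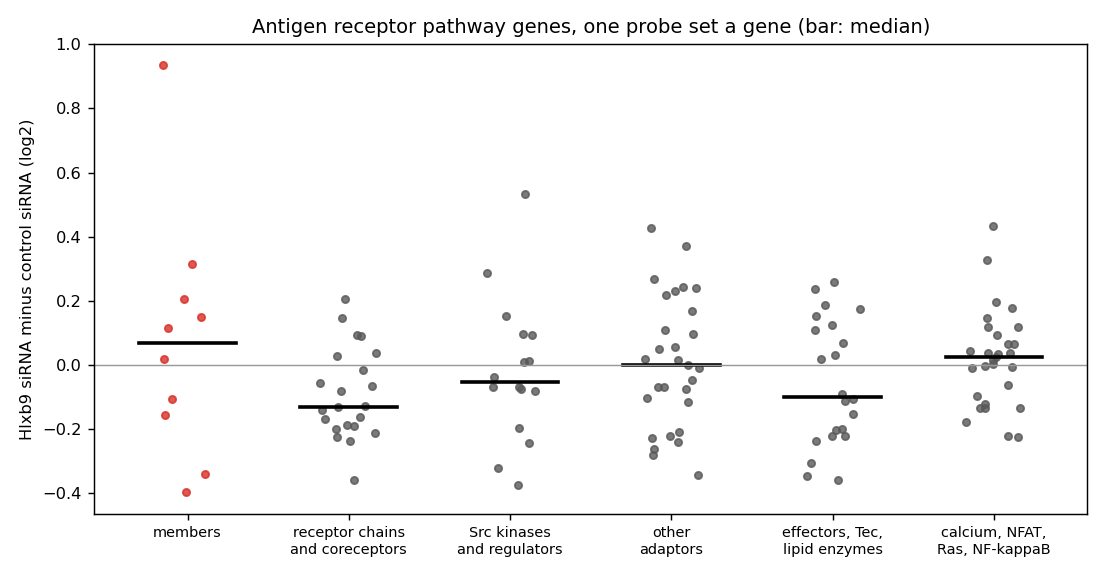
Difference between Hlxb9 siRNA and control siRNA (vertical axis, log2) for the members (red, 10 genes) and 5 pathway lists (grey, 118 genes), 1 point a gene on its brightest probe set; bars are medians and horizontal jitter carries no value. Lcp2 is the point at 0.93, and all list genes lie between -0.37 and 0.53.

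The 5 genes most like Lcp2 over the 6 arrays, members left out of the ranking, were in none of the pathway lists. Those lists held only 118 of the genes compared, and none of the 118 rose by more than 0.53 log2. Their absence among the nearest genes therefore says nothing of the pathway. Likeness was the root mean square distance between values centred on each probe set's own mean, over 18183 genes, and it describes the same arrays that Lcp2 was picked on. The nearest was Ifih1, the MDA5 sensor of double-stranded RNA, at 0.127 log2 with Pearson r of 0.973 over 6 arrays. It read 4.91, 5.30 and 5.26 in controls and 6.21, 6.18 and 6.15 after Hlxb9 siRNA. Pipox, a peroxisomal oxidase of pipecolic acid and sarcosine, followed at 0.143, with 5.74, 5.62 and 6.21 in controls and 6.67, 6.53 and 6.75 after Hlxb9 siRNA. Serpina1c, 1 of several near-identical mouse antitrypsin genes whose probes may cross-react, stood at 0.148, Pid1 at 0.158 and Apof, a lipoprotein component, at 0.161. The 6 arrays fall in 2 groups, and 82 genes had an r of 0.95 or more with Lcp2.

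**Figure D4:**
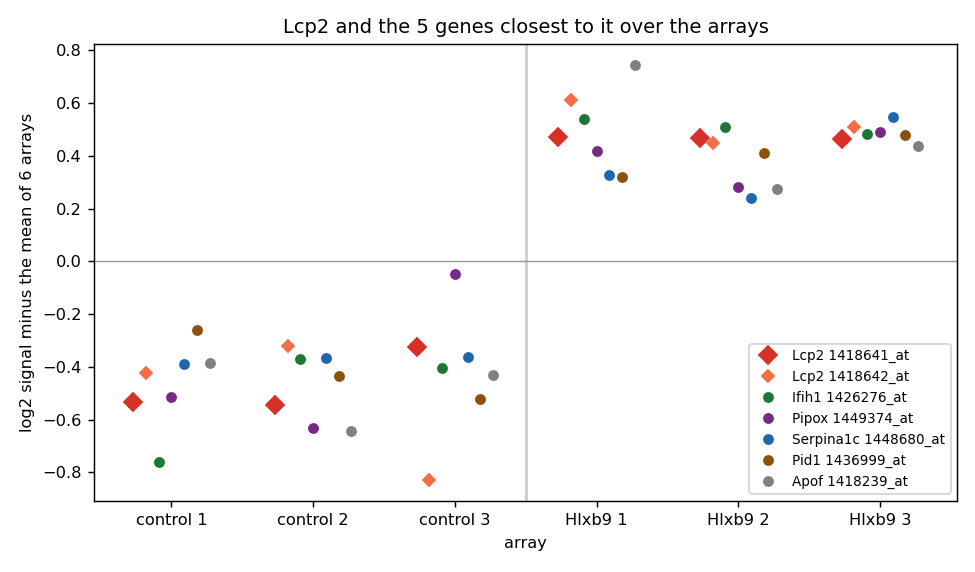
Log2 signal minus the mean over 6 arrays (vertical axis) for both Lcp2 probe sets (diamonds) and the 5 genes closest to 1418641_at (circles), by array, with points offset sideways for legibility. All 7 probe sets lie below 0 on the controls and above 0 on the Hlxb9 siRNA arrays, and the second Lcp2 probe set is lowest on control replicate 3 at -0.83.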

How the data were processed

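The deposited values are log2 signals per probe set on 6 Affymetrix mouse arrays, 3 per group. Per the submitters' processing notes, the authors used RMA and Partek; the sources used here give neither settings nor genome build. Precision is limited by the small number of arrays.

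Of 45101 probe sets, 64 controls of the array maker were set aside. Platform annotation gave 1 symbol for 34945 of the rest, several for 932 and none here for 9160. Pathway genes were read by their probe set with the highest mean.

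The groups were compared in limma 3.58.1 (R 4.3.3, lmFit, eBayes, two-sided), Benjamini-Hochberg adjusted over 45037 probe sets. The code was checked on simulated data with a common SD and shifts larger than that of Lcp2. That check does not show whether differences of the size seen here could be called. Members and lists were chosen with earlier results of these data known. The 3 genes of lowest unadjusted p in each pathway list are named. The genes most like Lcp2 are the 5 nearest; 1 clone name was skipped.

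Arrays of equal number deviated together weakly (r = 0.155, 0.165 and 0.202), against 0.072 or lower between different numbers. Differences within equal numbers are therefore given beside the group differences. This reading comes from the values, and the labels state no pairing. The main fit did not use the numbers, so the SE, p and calls are unpaired except under the replicate block. The replicate block, centring, repeated quantile normalization, an offset of 32, a filter on dim probe sets, a variance trend with robust prior, array weights, other probe set rules, a threshold of 0.1 and leaving out each array were alternatives.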

Additional observations from a re-analysis of the deposited data

How the results depend on the processing

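With array weights limma called 1132 of the 45037 probe sets, 579 higher and 553 lower. The weights were 4.46 and 2.91 for the arrays numbered 2, and 0.204 to 0.792 for the others. They were estimated from the same arrays, and this fit rests mostly on replicate 2 of each group. Of the 118 pathway genes limma called 5 (adjusted p from 0.0443 to 0.0499). Cbl, Nfatc2 and Sla were higher and Dok3 and Cd247 lower, each on its brightest probe set. Sla was named after its values were seen. Lcp2 was picked on this comparison, so no call is read for it. Of the other 19 member probe sets 1 was called, that of Lat. No share of all genes was counted under these weights, so the calls are not read as a result about the pathway. Lcp2 probe set 1418642_at stood at 0.84 there. The offset gave 0.77 and 0.58 for the Lcp2 probe sets. The other alternatives called 0 in the counts run for them; the threshold of 0.1 was applied to all probe sets alone, and the other probe set rules to pathway genes alone. With the replicate block limma also called 0, with a smallest adjusted p of 0.478, and the pairing changed no other call. Leaving out each array in turn called 0 throughout, and moved Lcp2 between 0.90 and 1.01 on 1418641_at and between 0.90 and 1.15 on 1418642_at. Across all alternatives 13 of 21 member probe sets kept their sign and 8 did not: those of Blnk and Plcg2, 2 each of Lat2 and Syk, and 1 each of Zap70 and Plcg1. None of the 15 named pathway genes changed sign on its brightest probe set under the alternatives run for that probe set. The choice of probe set was not part of that count. Cbl, Cd247, Nfatc2, Plcb4 and Yes1 each had another probe set with the opposite sign. Dim signal limits what can be said of Grap2, Lat, Lat2, Syk, Zap70 and Btk.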
